A study of Mus musculus with 24 samples.

Results

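The acetylcholine receptor of the neuromuscular junction and the proteins that cluster it and end its signal were followed through 10 genes: the receptor subunits Chrna1, Chrnb1, Chrnd, Chrne and Chrng, the receptor tyrosine kinase Musk, its adaptor Dok7, the scaffold Rapsn, and the cholinesterase genes Colq and Ache. The genes were taken by symbol from a list that names the parts of this complex, and all 10 were found among the 47643 genes of the deposited table. The samples were plantaris muscles, a fast hindlimb muscle, of wild type C57BL/6 mice, of which 11 breathed normal air and 13 had 16 weeks of tobacco smoke. Their messenger RNA was counted from the 3′ end of each transcript. The labels give no age, sex or smoke dose and do not say that replicates are separate animals, so the p-values measure only the spread between these samples. The comparison asks whether junctional transcripts differ in muscle after smoke exposure.

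The muscle receptor is a pentameric cation channel that opens when the motor nerve releases acetylcholine. The adult junction holds the epsilon subunit (Chrne) in place of the fetal gamma subunit (Chrng), which returns when muscle is denervated. Nerve-derived agrin binds LRP4 and activates MuSK, DOK7 binds and sustains the active kinase, and rapsyn (Rapsn) then clusters receptors under the nerve ending. Acetylcholinesterase (Ache) is held in the synaptic cleft by its collagen tail (Colq) and breaks the transmitter down. In adult muscle, transcription of the receptor subunit genes is concentrated in the few nuclei under the nerve ending.

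Total counts per sample ranged from 2515697 to 4528845, and log2 totals did not separate the groups (two-sided permutation p = 0.681). Fibre markers such as Acta1 and Ckm, 11 of 11 tested, summed to between 138869 and 216589 CPM (counts per 1000000, on libraries scaled by the TMM method) in air and between 145936 and 184860 CPM in smoke. Of 7 tested Schwann cell and myelin markers, 3 were called higher under smoke (Ncmap, Prx and Pmp22) in edgeR's test at an adjusted p under 0.05. Over all tested genes 1.92% were called. All 7 had a log2 fold change above 0, and 5 had an unadjusted p under 0.05, against 15.5% of all tested genes. The list summed to 138 to 329 CPM in air (median 176) and 172 to 441 CPM in smoke (median 216). The 3 called markers also spread more widely under smoke. Ncmap was at 2.46 ± 1.07 CPM (SD, n = 11) for air and 8.67 ± 9.91 CPM (SD, n = 13) for smoke, and Pmp22 at 33.0 ± 6.17 and 61.0 ± 42.3 CPM. Of 5 tested blood markers, 3 were called lower in the same test. All 5 had a log2 fold change below 0, and 4 had an unadjusted p under 0.05. Their sums were 483 to 1433 CPM in air and 366 to 876 CPM in smoke. Motor axon markers summed to 41.6 to 150.2 CPM in air and 36.2 to 125 CPM in smoke, with none of 4 tested genes called and Chat at 2 counts over all air and 3 over all smoke samples. Every listed marker of the Schwann cell and blood lists had counts in both groups. The part of these other cells in the values below was not tested. The order of samples in the sequencing sheet, read from the column headers, separates the groups, so that sheet position and smoke cannot be told apart.

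Of the 10 genes, 6 passed the expression filter (Chrna1, Chrnb1, Chrne, Dok7, Rapsn and Ache), and 0 of these 6 passed an adjusted p under 0.05 for smoke against air by edgeR's quasi-likelihood test with Benjamini-Hochberg adjustment. Over all 10159 tested genes 1.92% were called. At an unadjusted p under 0.05 there was 1 of 6, Dok7, against 15.5% of all tested genes, so that the count is near the background. DESeq2, which called 323 genes in all, and limma voom, which called 175, also called 0 of the 6. The median log2 fold change of the 6 genes was −0.025 and that of all tested genes 0.0066. The other 4 genes (Chrnd, Chrng, Musk and Colq) were too low for the filter and are given as counts.

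**Figure D1:**
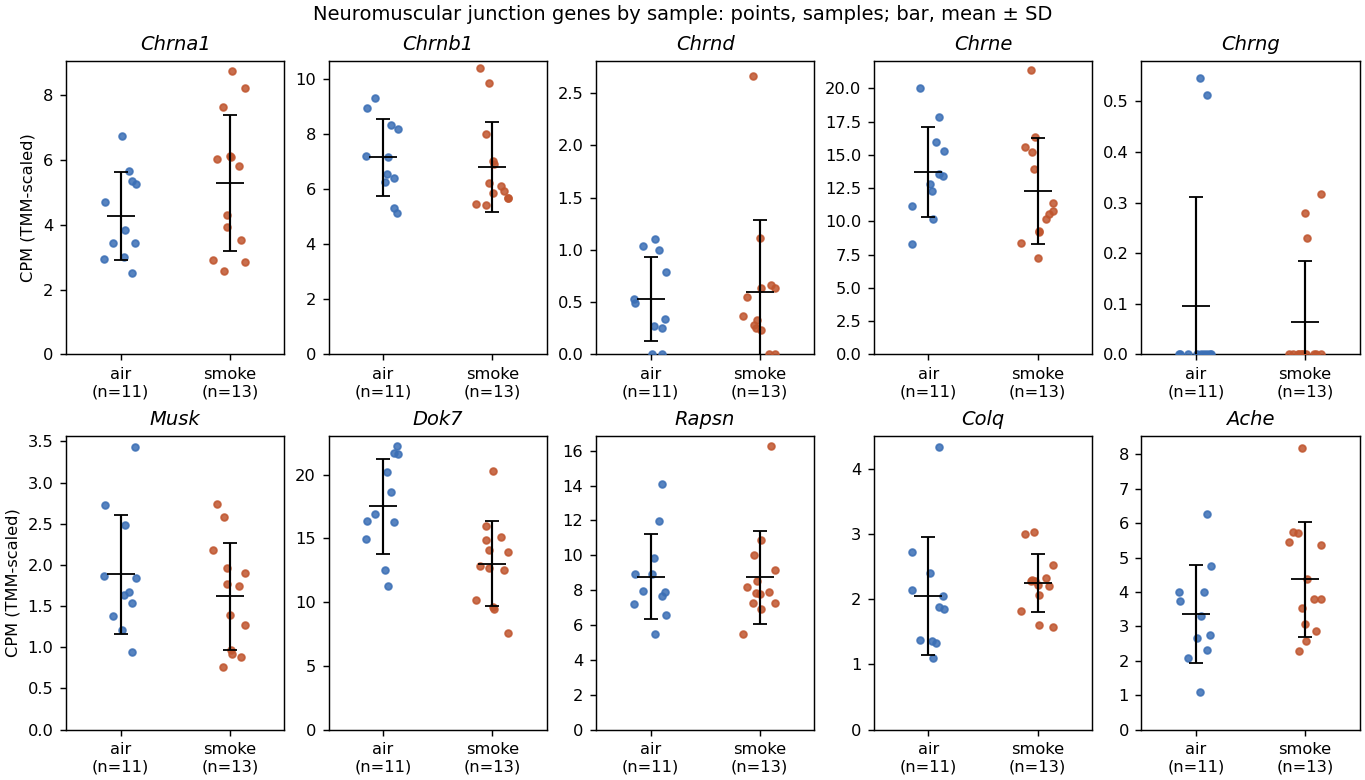
Normalised level (CPM, y axis, a separate linear scale in each panel) of the 10 genes in 11 air and 13 smoke samples; points are samples and the bar is the mean ± SD, cut at 0 where it would pass below. The groups overlap in every panel; Dok7 averaged 17.5 CPM in air and 13.02 CPM in smoke, and Chrng lay at 0 in 19 of 24 samples.

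Among the receptor subunits, Chrne gave the most counts. This gene for the adult epsilon subunit had 524 counts over the air samples and 542 over the smoke samples. Air samples lay between 8.28 and 20.01 CPM with a median of 13.4, and smoke samples between 7.24 and 21.3 CPM with a median of 10.7. Both groups spanned nearly the same range, with 1 smoke sample above and 1 below every air sample. The means were 13.7 ± 3.40 CPM (SD, n = 11) and 12.3 ± 3.98 CPM (SD, n = 13), a log2 fold change of −0.16 (SE 0.15, adjusted p = 0.681 by edgeR). The 95% interval of the fold ran from 0.724 to 1.11.

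Chrng, the gene for the fetal gamma subunit, had 7 counts in all 24 samples together. These were 2 counts in each of 2 air samples and 1 count in each of 3 smoke samples, and the remaining 19 samples had 0. In these libraries 3 counts, taken as the floor, equal 0.661 to 1.14 CPM, so that every sample lay under it, and the floor covers counting error only. Over all samples Chrng made up 0.331% of the 2112 counts of the 5 subunit genes, and Chrne 50.5%. Its CPM did not differ between groups beyond the spread, at 0.0961 ± 0.214 (SD, n = 11) for air and 0.0635 ± 0.122 (SD, n = 13) for smoke (two-sided permutation p = 0.688, adjusted over the 4 low genes p = 0.838).

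The upstream sequences of Chrne, Chrng and Chrna1 are shown because these subunit genes gave such unequal counts. They are the 250 bases before the transcription start in RefSeq (GRCm38.p6), and 7 of the 10 genes had such an entry. Capitals mark the E-box CAGCTG, a site type bound by myogenic factors such as MyoD and myogenin, and CCGGAA, the N-box core bound by the ETS factor GABP in synaptic genes. Both strands were searched, and the motifs do not overlap.
Chrne, chr11:70619195-70619444, minus strand: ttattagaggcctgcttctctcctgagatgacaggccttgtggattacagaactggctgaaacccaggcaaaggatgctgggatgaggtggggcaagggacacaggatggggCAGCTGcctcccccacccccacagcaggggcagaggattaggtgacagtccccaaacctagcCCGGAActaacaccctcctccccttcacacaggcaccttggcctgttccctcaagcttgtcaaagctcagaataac
Chrng, chr1:87205561-87205810, plus strand: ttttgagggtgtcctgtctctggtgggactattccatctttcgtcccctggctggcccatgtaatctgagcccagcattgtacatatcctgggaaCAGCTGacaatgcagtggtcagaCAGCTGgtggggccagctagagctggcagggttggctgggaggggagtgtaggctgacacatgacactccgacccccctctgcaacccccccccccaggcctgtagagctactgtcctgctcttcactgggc
Chrna1, chr2:73580339-73580588, minus strand: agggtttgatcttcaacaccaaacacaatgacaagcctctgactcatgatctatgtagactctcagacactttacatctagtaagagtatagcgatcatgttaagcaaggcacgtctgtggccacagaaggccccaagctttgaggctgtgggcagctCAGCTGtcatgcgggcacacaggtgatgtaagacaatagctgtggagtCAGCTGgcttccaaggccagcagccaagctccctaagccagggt

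CAGCTG begins 138 bases before the start of Chrne, 155 and 132 bases before that of Chrng, and 92 and 44 bases before that of Chrna1. It occurs in 13.001% of all 32851 RefSeq windows of this length. CCGGAA begins 76 bases before the start of Chrne and is not in the windows of Chrng or Chrna1, and 12.03% of all windows hold it. The Musk window holds 1 CAGCTG, 68 bases before its start, and the windows of Chrnb1, Dok7 and Ache hold neither motif. The E-box letters stand before Chrng, at 7 counts over all samples, Chrna1, at 407, and Chrne, at 1066, and not before Chrnb1, at 587. Chrnd, at 45 counts, had no window. Whether the letters bear on these counts was not tested. A match of letters is a description of the window and not evidence of a bound site.

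Chrna1 encodes the alpha subunit, which forms most of the acetylcholine binding site. It had 407 counts in all, with air samples from 2.504 to 6.75 CPM (median 3.86) and smoke samples from 2.58 to 8.74 CPM (median 5.83). The smoke group reached higher, with 3 of 13 smoke samples above every air sample, but 5 of 13 smoke samples lay below the air mean. The log2 fold change was 0.295 (SE 0.21, adjusted p = 0.533 by edgeR, 95% interval of the fold 0.918 to 1.64).

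Chrnb1, the gene for the beta subunit, had 279 counts in air and 308 in smoke. Air samples ran from 5.14 to 9.32 CPM (median 7.16) and smoke samples from 5.44 to 10.4 CPM (median 6.12). The ranges of Chrnb1 overlapped, but 10 of 13 smoke samples lay below the air mean, while 2 lay above every air sample. Its log2 fold change was −0.066 (SE 0.14, adjusted p = 0.880 by edgeR), with the fold between 0.786 and 1.16. Chrnd, the gene for the delta subunit, had 20 counts in air and 25 in smoke. Its counts ran from 0 to 4 in air (median 2) and from 0 to 7 in smoke (median 1), with 2 samples of each group at 0. The CPM means were 0.530 ± 0.401 (SD, n = 11) and 0.594 ± 0.693 (SD, n = 13) (two-sided permutation p = 0.838, adjusted p = 0.838).

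The subunit genes were also compared as shares of their summed counts within each sample, a measure that library scaling cannot move. The sum was 47 to 119 counts per sample. Chrna1 made up 16.6 ± 4.67% (SD, n = 11) for air and 21.2 ± 7.52% (SD, n = 13) for smoke, and 9 of 13 smoke samples lay above the air mean (two-sided permutation p = 0.0947, Benjamini-Hochberg adjusted over 5 subunits p = 0.474). Chrne made up 52.8 ± 7.73% in air and 48.7 ± 8.80% in smoke, and 9 of 13 smoke samples lay under the mean of air (permutation p = 0.238, adjusted p = 0.596). Chrnb1 held 28.1 ± 5.25% and 27.6 ± 4.41%, and Chrnd 2.04 ± 1.49% and 2.20 ± 1.99% (permutation p = 0.806 and 0.833). No share passed the test. Counts here stand for transcript 3′ ends and are not divided by gene length, and a 3′ end that the annotation misses would lower a gene's share.

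**Figure D2:**
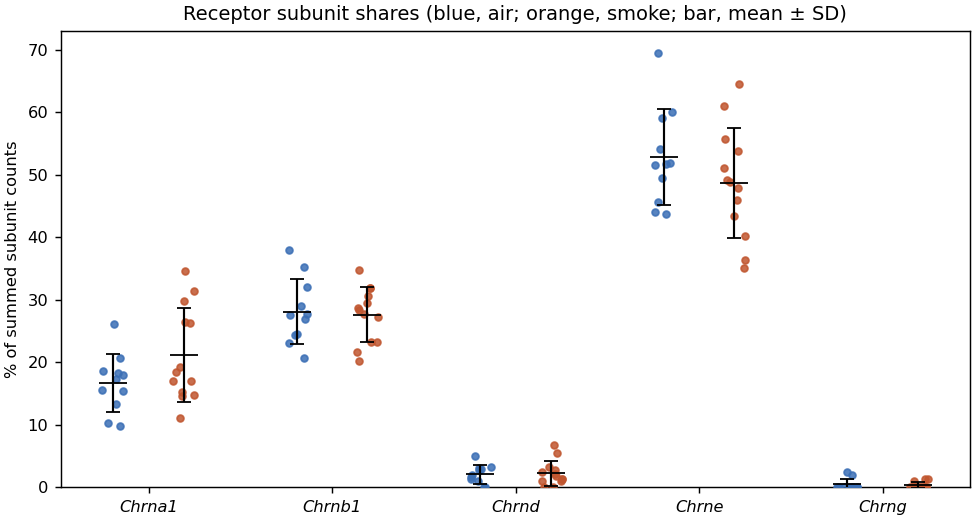
Share of each receptor subunit gene in the summed counts of the 5 subunit genes (y axis, percent), by sample, in air (n = 11) and smoke (n = 13); bars are means ± SD, cut at 0. Chrne averaged 52.8% in air and 48.7% in smoke, and Chrng stayed between 0 and 2.41% in every sample.

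Dok7, the cytoplasmic adaptor that activates MuSK, had the smallest p of the 6 tested genes. It had 678 counts in air and 583 in smoke. Air samples lay between 11.3 and 22.3 CPM with a median of 16.9, and smoke samples between 7.59 and 20.3 CPM with a median of 12.9. Of 13 smoke samples 12 lay below the air mean and 4 below every air sample, while 3 air samples lay above every smoke sample. The groups therefore overlapped, and the 1 smoke sample above the air mean was smoke replicate 1, at 20.3 CPM. The means were 17.5 ± 3.73 CPM (SD, n = 11) and 13.02 ± 3.35 CPM (SD, n = 13), a log2 fold change of −0.43 (SE 0.13), or a fold of 0.745 with a 95% interval of 0.619 to 0.896. The unadjusted p was 0.00271, and the edgeR quasi-likelihood p adjusted over all tested genes was 0.0808, which does not pass. It passed when smoke replicate 1 was left out (adjusted p = 0.0336) and when air replicate 1 was left out (adjusted p = 0.0437). In whole muscle, a different number of nuclei that transcribe Dok7 and a different amount of its RNA per nucleus cannot be told apart.

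Musk, the kinase that Dok7 binds, was near the floor, with 3 to 11 counts per air sample (median 6) and 2 to 10 per smoke sample (median 6). The groups totalled 73 and 72 counts. Their means were 1.88 ± 0.728 CPM (SD, n = 11) and 1.62 ± 0.652 CPM (SD, n = 13), and did not differ beyond the spread (two-sided permutation p = 0.358, adjusted p = 0.838). In edgeR without the expression filter its log2 fold change was −0.22 (SE 0.30), and Dok7 in that fit had an SE of 0.12, so that Musk was measured less precisely than its adaptor.

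Rapsn, which encodes the scaffold that packs receptors together, had 338 counts in air and 401 in smoke. Air samples lay between 5.51 and 14.1 CPM (median 7.94) and smoke samples between 5.46 and 16.3 CPM (median 7.87). The highest value was smoke replicate 7, with 74 counts, and the next smoke sample was at 10.9 CPM. In that sample Chrne was at 10.6 CPM, 8th of 13 in its group, and Dok7 at 12.6 CPM, 9th of 13. The means were 8.78 ± 2.46 CPM (SD, n = 11) and 8.73 ± 2.66 CPM (SD, n = 13), a log2 fold change of 0.016 (SE 0.16, adjusted p = 0.980 by edgeR, fold interval 0.812 to 1.26). Without smoke replicate 7 it was −0.11 (adjusted p = 0.781). Rapsn overlaps Gm13778 on the opposite strand, a transcript with 55 counts over all samples, and whether counting used strand is not given, so that its counts are uncertain to that extent.

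The cholinesterase genes were both low. Ache had 130 counts in air and 191 in smoke, with air samples between 1.09 and 6.26 CPM (median 3.304) and smoke samples between 2.29 and 8.18 CPM (median 3.79). Of 13 smoke samples 4 lay below the air mean and 1 lay above every air sample. The log2 fold change was 0.36 (SE 0.22, adjusted p = 0.472 by edgeR), with a fold between 0.937 and 1.76. Ache overlaps Gm42456 and Mir8116, each at 0 counts in all samples. Colq, which anchors the enzyme to the basal lamina, had 4 to 17 counts per air sample (median 6) and 5 to 12 per smoke sample (median 8). Its means were 2.05 ± 0.910 CPM (SD, n = 11) and 2.25 ± 0.444 CPM (SD, n = 13) (two-sided permutation p = 0.515, adjusted p = 0.838). Colq overlaps Gm24057, at 1 count in all samples, and Gm49387, which is not among the deposited genes. Both lie on the same strand as Colq, so that counts of Colq are uncertain to that extent. Chrne overlaps 4930544D05Rik on the opposite strand, which had 2 counts in all samples.

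**Figure D3:**
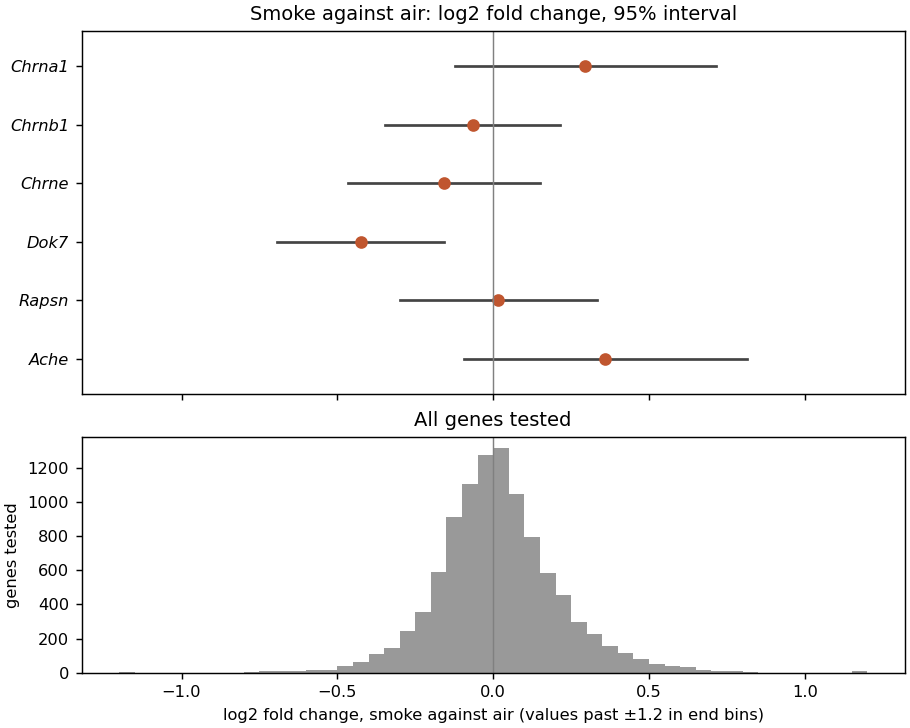
Upper panel, log2 fold change of smoke against air (x axis) for the 6 tested genes with 95% intervals; lower panel, the same quantity for all 10159 tested genes (y axis, number of genes). The interval of Dok7, centred on −0.43, lies below 0, and the intervals of the other 5 genes include 0; Dok7 does not pass after adjustment over all tested genes.

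The scatter between samples of a group was large and partly that of counting. Coefficients of variation of CPM in air ran from 19.4% for Chrnb1, against 19.9% that counting alone gives at its mean count, to 42.3% for Ache among the tested genes, against 29.1%. For Dok7 they were 21.3% in air and 25.8% in smoke, against 12.7% and 14.9% from counting. The biological coefficient of variation that edgeR estimates after counting error was 13.5% for Chrnb1, 18.2% for Dok7, 20.6% for Rapsn, 21.3% for Chrne, 25.8% for Chrna1 and 26.3% for Ache. The median over all tested genes was 14.9%. That median is not matched for level. The trend that edgeR fits against level gave higher values at the levels of these genes, from 16.02% for Dok7 to 23.3% for Ache. Chrnb1 lay below both the median and its trend value of 19.7%. The other 5 genes lay above both, and whether they vary more than genes of the same level was not tested.

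Whether the genes moved together from sample to sample was measured over the 15 pairs of tested genes, on log2 CPM with the group means removed. Pearson's r was positive in 10 pairs and negative in 5, from −0.15 to 0.34 with a median of 0.13, and 0 pairs passed after adjustment (0 at an unadjusted permutation p under 0.05). The highest r was that of Chrna1 with Chrnb1, at 0.34 (n = 24, permutation p = 0.121, adjusted p = 0.785), with Spearman's rho 0.39 (permutation p = 0.0686, adjusted p = 0.668). It was 0.31 within air (permutation p = 0.352) and 0.36 within smoke (permutation p = 0.237), and 0.23 when the 2 samples with the most extreme Chrna1 were left out. Chrne, the adult subunit, had r = 0.32 with Chrnb1 (permutation p = 0.141; rho 0.21, permutation p = 0.323) and 0.0089 with Chrna1 (permutation p = 0.968; rho 0.017, permutation p = 0.941). With the 2 samples most extreme in Chrnb1, or in Chrna1, left out, these were 0.20 and 0.077. No pair of subunit genes passed the test.

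**Figure D4:**
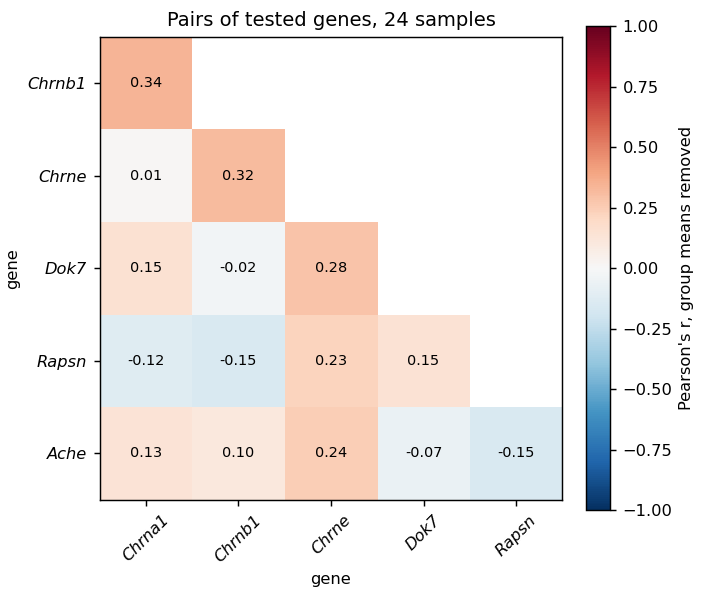
Pearson's r (colour and number) between each pair of the 6 tested genes over 24 samples, on log2 CPM with the mean of each group removed; both axes list genes. The values lie between −0.15 and 0.34, and none of the 15 pairs passed after adjustment.

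Of all 10159 tested genes, those outside the 10 with the highest r to the mean of Chrna1, Chrnb1 and Chrne over the 24 samples were Grcc10 (r = 0.77), Msrb2 (0.76), Snhg20 (0.75), Mpp3 (0.75) and Sgcb (0.73). They are the top of a ranking over all genes in the same libraries and are given as a description. Msrb2 encodes a mitochondrial methionine sulfoxide reductase and Sgcb the beta-sarcoglycan of the dystrophin complex. The r to the same mean was 0.24 for Ache, 0.22 for Dok7 and −0.018 for Rapsn. None of the 5 nearest genes passed for smoke against air (edgeR adjusted p from 0.278 to 0.993).

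The other genes of the junction were read from 8 lists with 90 entries, of which 55 passed the filter. In edgeR's test 0 of these 55 were called, against 1.92% of all tested genes, and 9 had an unadjusted p under 0.05 against 15.5% of all. Of these 9 genes 5 were above and 4 below air, against 7.55% and 7.95% of all tested genes. Their median log2 fold change was −0.018, with 26 values above 0 and 29 below. In the agrin and MuSK pathway 16 of 18 genes were tested and 0 passed. Lrp4, the muscle receptor for agrin, was at 6.01 ± 1.66 CPM in air (SD, n = 11) and under smoke at 8.12 ± 2.18 CPM (SD, n = 13), a log2 fold change of 0.44 (SE 0.16, adjusted p = 0.157 by edgeR). Dvl1, a Wnt pathway protein that binds MuSK, was at 129 ± 7.20 and 138 ± 12.4 CPM (adjusted p = 0.343).

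Of the neuregulin receptors and synaptic transcription factors, 3 of 10 were tested. Prkar1a, a regulatory subunit of protein kinase A, had a log2 fold change of −0.051 (SE 0.052, adjusted p = 0.704 by edgeR) and Gabpa, the factor of the N-box, one of −0.071 (SE 0.25, adjusted p = 0.933 by edgeR). Of the postsynaptic scaffold and synaptic basal lamina 14 of 17 were tested and 0 passed. Lamb2, the laminin chain enriched at the synapse, was at 147 ± 32.4 CPM in air (SD, n = 11) and under smoke at 123 ± 14.9 CPM (SD, n = 13) (log2 fold change −0.25, SE 0.086, adjusted p = 0.115 by edgeR). It passed only when smoke replicate 13 was left out, among the fits that left out 1 sample (log2 fold change −0.29, adjusted p = 0.0491 by edgeR). Hspg2, whose product perlecan holds the tailed acetylcholinesterase, had a log2 fold change of −0.20 (SE 0.084, adjusted p = 0.213 by edgeR). With the replicate number as a block Hspg2 passed (log2 fold change −0.29, adjusted p = 0.0318 by edgeR). Of the list of glycosylation and assembly genes, 9 of 10 were tested and 0 passed, with 8 log2 fold changes above 0 and 1 below. Gfpt1, the first enzyme of hexosamine synthesis, had a log2 fold change of 0.14 (SE 0.062, adjusted p = 0.262 by edgeR) and Alg2, a mannosyltransferase, one of 0.37 (SE 0.20, adjusted p = 0.394 by edgeR).

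In the denervation and extrajunctional list, 12 of 17 genes were tested and 0 passed. Trim63, a muscle ubiquitin ligase, was at 173 ± 39.7 CPM in air (SD, n = 11) and under smoke at 137 ± 20.6 CPM (SD, n = 13) (log2 fold change −0.33, SE 0.095, adjusted p = 0.0568 by edgeR). It passed without an expression filter (adjusted p = 0.0200 by edgeR), in DESeq2 (adjusted p = 0.0417), and also when air replicate 2, 6 or 11 or smoke replicate 7, 8 or 11 was left out. Myh8, the perinatal myosin heavy chain, had a log2 fold change of 0.46 (SE 0.17, adjusted p = 0.155 by edgeR). Bche, a second cholinesterase and the tested one of its list of 2, was at 3.29 ± 1.63 CPM (SD) under air and 4.78 ± 1.36 CPM (SD) under smoke (log2 fold change 0.53, SE 0.22, adjusted p = 0.210 by edgeR). None of 11 neuronal nicotinic and none of 5 muscarinic receptor genes passed the filter. Chrna4, the highest count of the neuronal subunits, had 23 counts over all air and 39 over all smoke samples. Chrna3 and Chrna9 had 0 in every sample, where the floor of 3 counts allows up to 0.661 to 1.14 CPM. Among muscarinic receptors Chrm3 had 76 and 103 counts.

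**Figure D5:**
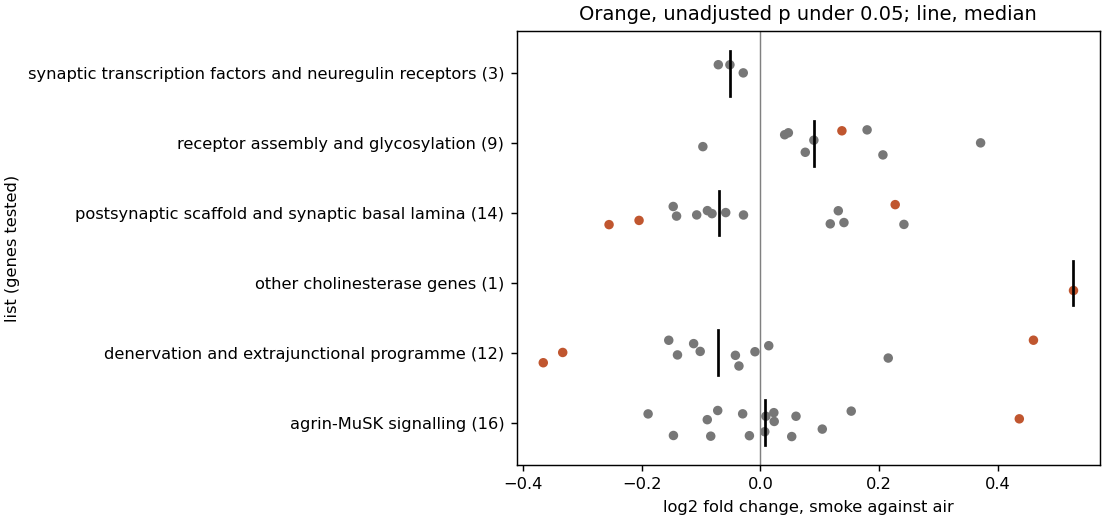
Log2 fold change of smoke against air (x axis) for the tested genes of the 6 lists that had any (y axis, with the number tested); lines are medians and orange points have an unadjusted p under 0.05. None of the 55 genes passed after adjustment over all tested genes, and the points lie on both sides of 0 in the 3 largest lists. Above and below 0 lie 8 and 1 genes of receptor assembly and glycosylation. For synaptic transcription factors and neuregulin receptors these numbers are 0 and 3, and for other cholinesterase genes 1 and 0.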

How the data were processed

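The data were QuantSeq 3′-end libraries of plantaris RNA on an Illumina HiSeq instrument, per the labels' protocols. The authors deposited raw read counts per Ensembl gene ID, 1 column per sample. STAR, DESeq2 and the build mm9 are named in the submitters' processing notes. Counting tool, annotation, strand use, filters and molecular identifiers are not given in the sources used here. Symbols came from GENCODE M21 (GRCm38), which held 47224 of 47643 IDs (99.1%). Since the builds differ, coordinates are given only for RefSeq windows.

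Groups came from the sample titles. Counts were tested with edgeR 4.0.16 in R 4.3.3: filterByExpr (minimum count 10), TMM scaling, quasi-likelihood F-test on all 24 samples, Benjamini-Hochberg adjustment over 10159 genes, calls at an adjusted p under 0.05. The procedure was tested on simulated data. Genes under the filter, subunit shares and correlations (log2 CPM, prior count 2) were tested by two-sided permutation with 100000 resamples. Counts of 133 pairs of samples within groups differed beyond sampling noise (chi-square per gene 2.52 to 18.5), so none were merged.

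Alternatives were RLE scaling, no filter, DESeq2 1.42.0, limma 3.58.1 (voom), the replicate number as a block, and leaving out each sample. Named are the 10 genes, cell type markers, the 2 tested genes with the smallest p in each list (or those called), and the 5 genes nearest to the subunit mean. Rapsn in smoke replicate 7, Chrna3, Chrna4, Chrna9 and Chrm3 were singled out after their values were seen. In the Schwann cell and myelin list 1 gene is not reported here and was left out of its counts and sums. The rule for the 10 genes names symbols and no measured value, but the 10 genes and the lists were chosen with earlier results of these data known.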

Additional observations from a re-analysis of the deposited data

How the results depend on the processing

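Of the 6 tested genes, 0 were called under RLE scaling, DESeq2, limma voom or the replicate block, and 0 of all 10 genes without the expression filter. Across these the adjusted p of Dok7 ran from 0.0515 (DESeq2) to 0.134 (block). Leaving out each of 24 samples gave 0 to 1 called (Dok7, without air replicate 1 or smoke replicate 1), with the log2 fold change of Dok7 between −0.50 and −0.38. In these fits the other log2 fold changes, none of which passed, ran from 0.20 to 0.38 for Chrna1, −0.13 to −0.028 for Chrnb1, −0.24 to −0.098 for Chrne and 0.25 to 0.48 for Ache. Rapsn, near 0, changed sign: −0.064 under the block, and −0.11 to 0.099 over the fits that left out a sample. The share of Chrng changed sign as a log2 ratio (0.036). Of the junction lists, 1 gene was called without a filter and 1 with DESeq2 (both Trim63), 1 under the block (Hspg2, log2 fold change −0.29), and 0 to 1 when samples were left out (Trim63, or Lamb2 without smoke replicate 13). Genes called in all numbered 195, 323 with DESeq2 (cause not tested), and 141 to 254 when samples were left out, the lowest number of higher calls being 47 without air replicate 3.

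The replicate numbers 1 to 11 occur in both groups, but deviations of same-numbered samples correlated at a mean r of −0.0059 (11 pairs, −0.28 to 0.14; 0.0011 over 132 other pairs), and 2 of 11 air samples correlated best with their own number, so the numbers were not taken to pair samples. With the replicate number as a block (22 samples), 138 genes were called, 0 of the 6 among them. Other alternatives for the low genes, shares and correlations stayed on their side of the threshold. Depth limits Chrnd, Chrng, Musk and Colq most, with group medians of 0 to 8 counts per sample.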
